A study of Mus musculus with 4 samples.

Results

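The genes described here were 10 transcripts of fat cells, namely Car3, Cfd, Retn, Adipoq, Cyp2e1, Thrsp, Lpl, Fabp4, Plin1 and Cidec, taken by name from the 32287 genes counted in popliteal lymph nodes (PLNs). They held 16494 of the 13565628 molecules counted over all samples. Transcripts are counted by unique molecular identifiers (UMIs), so that copies made during amplification count once, and levels are given as UMIs of a gene per 10000 UMIs of all genes in the same spots. These are tag counts that were not divided by transcript length, so levels were compared between samples and not between genes.

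White fat cells store triglyceride in a lipid droplet and release hormones, the adipokines, into the blood. Lymph nodes lie in fat pads, and fat outside the capsule is cut along with a node when a section is made. In adipocytes, lipoprotein lipase and the fatty acid carrier FABP4 serve lipid uptake and transport, perilipin 1 and CIDEC coat and enlarge the droplet, and adiponectin, resistin and adipsin are secreted.

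PLNs, which drain the hindpaw and knee, were sectioned on 4 Visium capture areas, in which a section lies on a grid of barcoded spots that each cover a small region, often of more than 1 cell. On the WT area lay 10 PLNs from 5 wild-type C57BL/6 males aged 5.5 months. The Early area held 6 PLNs of 3 TNF-Tg males aged 5.5 months on the same background with early arthritis, and the areas Advanced 1 and Advanced 2 each held 6 PLNs of 3 TNF-Tg males aged 8.5 to 9 months with advanced arthritis. TNF-Tg mice carry a TNF transgene and came from 1 line. All mice received Evan's blue dye in the hindpaw before harvest, and the methods state a diet supplement for the TNF-Tg mice. There was no WT area at the age of the Advanced mice, so age and stage of disease cannot be told apart, nor can genotype and the supplement.

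Depth differed between areas and positions. The areas had 833 to 2015 spots and 1808678 to 5180493 UMIs, and an edge spot, with fewer than 6 neighbouring spots under tissue, had a median of 2113 to 5541 UMIs against 140.5 to 250.5 in interior spots with all 6 neighbours. At least 500 UMIs were held by 356 of 833 spots on WT, 707 of 1489 on Early, 803 of 2015 on Advanced 1 and 815 of 1782 on Advanced 2. Most interior spots were thus shallow, and whether edge and interior match the rim and inside of nodes was not tested. The edge held 79.3% of UMIs on the WT area, 75.7% on Early, 47.9% on Advanced 1 and 64.5% on Advanced 2. Position barcodes are printed in the same pattern on each area, and 249 of them were under tissue on all 4. Several nodes of an area were pooled in the sums, and a lower level can come from fewer fat cells under the spots or from less RNA per cell, which cannot be told apart here. Intervals are 95% and cover counting error only.

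The secreted products were lowest on the Early area. Adipoq (adiponectin, chr16:23146536-23158028, GRCm38), an adipokine made almost only by adipocytes, was at 0.326 UMIs per 10000 on WT, 0.199 on Early, 0.305 on Advanced 1 and 0.385 on Advanced 2. Retn (resistin, chr8:3655770-3660110), a fat cell hormone in the mouse, was at 0.276 on WT, 0.154 on Early, 0.518 on Advanced 1 and 0.707 on Advanced 2. Both Advanced areas were thus above WT and Early for Retn, while for Adipoq the Advanced areas lay on either side of WT. Cfd (adipsin or complement factor D, chr10:79890853-79892655), the protease that cleaves factor B in the alternative complement pathway, was at 3.68 on WT, 1.68 on Early, 3.60 on Advanced 1 and 4.06 on Advanced 2.

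Among the lipid handling genes, the highest area differed. Lpl (chr8:68880491-68907448), which frees fatty acids from circulating lipoproteins, was at 1.81 UMIs per 10000 on WT, 0.631 on Early, 1.06 on Advanced 1 and 1.17 on Advanced 2, so WT was above all TNF-Tg areas. Fabp4 (chr3:10204088-10208576), also made by capillary endothelium and some macrophages, was at 4.82 on WT, 3.43 on Early, 5.15 on Advanced 1 and 8.34 on Advanced 2. The droplet gene Plin1 (chr7:79720218-79732903) was at 0.199 on WT, 0.162 on Early, 0.127 on Advanced 1 and 0.228 on Advanced 2, with 36 to 84 UMIs an area. Advanced 2 was above Early 1.41-fold (1.01 to 1.95) and above Advanced 1 1.79-fold (1.21 to 2.68) in Plin1, and the interval of the ratio held 1 for the other pairs of areas. Cidec (chr6:113424634-113435760) was at 0.365 on WT, 0.245 on Early, 0.373 on Advanced 1 and 0.557 on Advanced 2.

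The metabolic genes differed in which areas were high. Car3 (chr3:14863512-14872523), a carbonic anhydrase abundant in fat and in slow muscle, was at 1.01 UMIs per 10000 on WT, 0.679 on Early, 1.39 on Advanced 1 and 1.77 on Advanced 2. Thrsp (Spot 14, chr7:97412938-97417730), a regulator of fatty acid synthesis, was at 0.160 on WT, 0.0907 on Early, 0.287 on Advanced 1 and 0.406 on Advanced 2. These genes shared the order of Retn, with Early lowest and Advanced 2 highest. Cyp2e1 (chr7:140763739-140774987), a cytochrome P450 of liver and fat, was at 0.470 on WT, 0.218 on Early, 0.263 on Advanced 1 and 0.600 on Advanced 2, so that the Advanced areas differed 2.28-fold from each other (1.76 to 2.96).

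**Figure D1:**
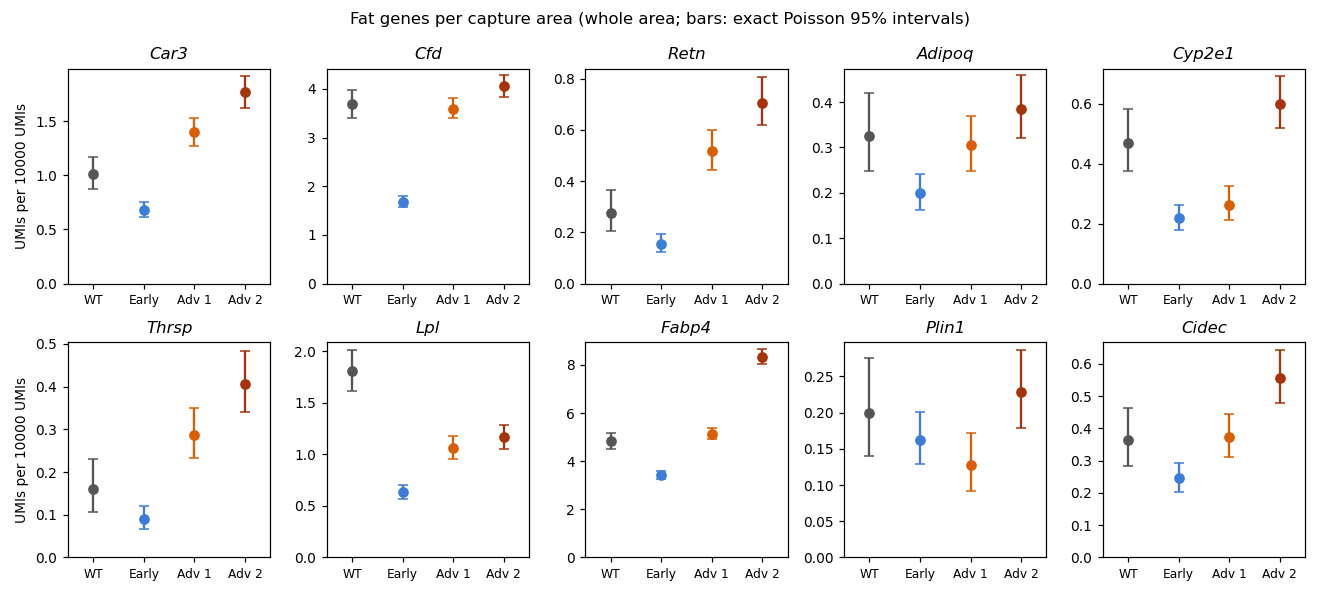
UMIs per 10000 UMIs of each of the 10 genes over all spots of the WT, Early, Advanced 1 and Advanced 2 areas, with exact Poisson 95% intervals. Early is the lowest area for 9 of the 10 genes, the exception being Plin1, and Advanced 2 is the highest for all but Lpl, where WT is highest.

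Early was not tested against WT, as each was represented by 1 area, and their values are given with counting intervals. The 10 genes summed to 13.1 UMIs per 10000 on WT and 7.49 on Early, a ratio of 0.571 (exact conditional binomial interval 0.542 to 0.601). Fabp4 made up much of the UMIs summed over the 10 genes, at 36.7% on WT, 45.8% on Early, 39.4% on Advanced 1 and 45.8% on Advanced 2. Lpl had the lowest ratio of Early to WT, at 0.349 (0.299 to 0.408), followed by Cfd at 0.456 (0.411 to 0.505) and Cyp2e1 at 0.464 (0.347 to 0.622). Fabp4 was at 0.711 (0.656 to 0.772). For 9 genes the interval lay below 1, and for Plin1, at 0.815 (0.545 to 1.24), it did not. The share of all genes with such an interval was not computed, so whether this count is unusual is not known.

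The fat genes lay in patches along parts of the outline of the spots under tissue, with many edge spots free of them. This outline is not that of single nodes, since on WT and Advanced 1 nearly all spots formed 1 connected piece. The leading 1% of spots by the summed UMIs of the 10 genes were 9 spots on WT, 15 on Early, 21 on Advanced 1 and 18 on Advanced 2. They held 40.7%, 45.6%, 63.3% and 56.4% of the fat gene UMIs in the same order, where the leading 1% of spots by depth held 18.1%, 11.4%, 15.9% and 13.7% of all UMIs. Of these leading spots, all were at the edge except 1 spot on Advanced 1. At the same time, 32.4% of edge spots on WT, 41.4% on Early, 51.4% on Advanced 1 and 34.8% on Advanced 2 had no UMI of any of the 10 genes. The highest spot held 187 fat gene UMIs on WT, 437 on Early, 440 on Advanced 1 and 486 on Advanced 2. The leading spots were also deep, with a median of 6961 to 14737 UMIs against 1822 to 5282 in the other edge spots.

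**Figure D2:**
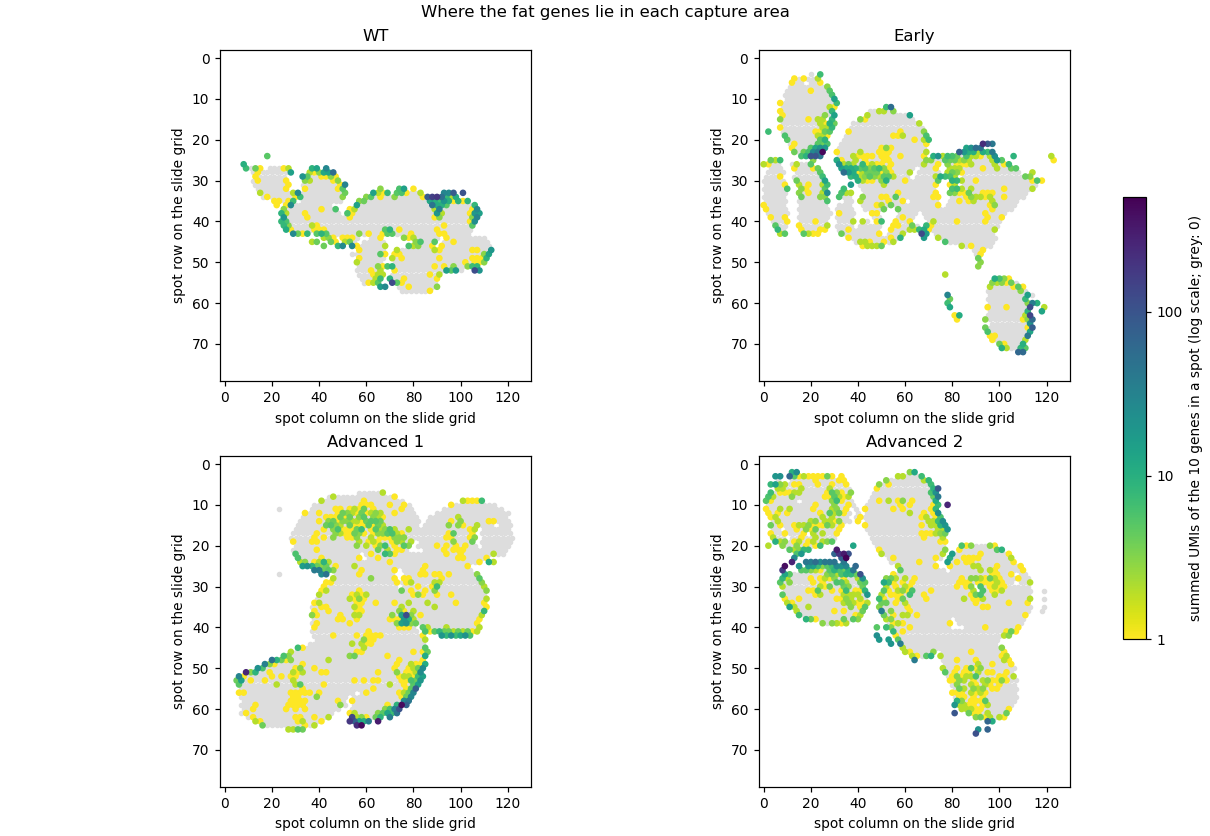
Summed UMIs of the 10 genes in each spot under tissue on the 4 areas, by spot row and column on the slide grid (log colour scale, grey for spots with 0). High counts form short stretches of the tissue outline, up to 187 UMIs in a spot on WT and 486 on Advanced 2, where the longest dark stretch lies on the detached piece of 249 spots around row 25 at the left.

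Members gathered in the same spots. For each gene, leading spots were chosen by the other 9 genes alone, so that its own counts did not enter the choice. On Advanced 1, 87.7% of Car3, 81.1% of Retn and 80.5% of Cfd UMIs lay in these 21 spots, which held between 7.13% and 8.11% of all UMIs. On WT the shares were 63.9% for Car3, 58.0% for Retn and 54.2% for Cfd, in spots with 3.49% to 5.43% of all UMIs. Fabp4 and Lpl had the lowest such shares of the 10 genes on every area. Their share in the spots led by the other genes was 27.4% and 17.1% on WT, 29.1% and 23.9% on Early, 39.1% and 43.3% on Advanced 1 and 36.4% and 51.7% on Advanced 2. Fabp4 was detected in 21.9% to 31.0% of the spots of an area, while Adipoq was detected in 1.69% to 3.12% and Plin1 in 1.34% to 3.36%.

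Taken over the 4 areas together, all 10 genes were higher at the edge than in the interior. On WT alone, the interval of the ratio of edge to interior held 1 for Adipoq, Cyp2e1, Thrsp, Lpl, Fabp4, Plin1 and Cidec. Over the 8 sums of UMIs, edge and interior for each area with the area as a block, the quasi-likelihood test of edgeR, adjusted by Benjamini-Hochberg, called 472 of 10998 genes higher at the edge (4.29%) and 412 lower, or 292 and 691 when scaled by library size only, and the 10 fat genes were among those called higher under either scaling. All 10 passed the filter on low counts in the 4 edge sums, but Car3, Cfd, Lpl and Fabp4 alone reached it in every interior sum, so for the other genes passing already required a high edge. The direction of this comparison was known when the genes were chosen. Car3 had the largest difference, a log2 difference of 3.41 ± 0.25 (SE; edgeR adjusted p = 2.78e-08), and Adipoq 2.97 ± 0.31 (edgeR adjusted p = 2.56e-06). Cfd, Retn, Cidec, Cyp2e1 and Thrsp lay between 2.24 and 2.71, and Plin1 was at 1.74 ± 0.34. Lpl at 0.85 ± 0.17 (edgeR adjusted p = 0.00339) and Fabp4 at 0.81 ± 0.13 (edgeR adjusted p = 0.00036) had the smallest differences. Leaving out the area block took the count of fat genes called to 7, without Thrsp, Lpl and Fabp4, and without Advanced 2 the count was 8, without Plin1 and Lpl. DESeq2 called 8 of the 9 genes it gave an adjusted p, all but Thrsp and with none for Plin1, and without the 5 leading spots of each area 9 were called, all but Lpl.

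Edge over interior differed between areas in size. On WT the 10 genes summed to 14.0 UMIs per 10000 at the edge (13.4 to 14.6) and 8.06 in the next ring. At 3 or more steps in from the edge they were at 17.5 (13.4 to 22.4), on 63 UMIs, and Cfd at 6.67 (4.27 to 9.92). For Cfd the level at the edge was 4.01 UMIs per 10000 on WT, 2.11 on Early, 6.52 on Advanced 1 and 6.14 on Advanced 2, and in the interior 2.44, 0.318, 0.909 and 0.264 in the same order. The interior was thus highest on WT, and the ratio of edge to interior was 1.65 on WT (1.32 to 2.08), 6.65 on Early, 7.18 on Advanced 1 and 23.2 on Advanced 2 (16.2 to 34.6). Car3 had ratios of 2.39, 5.95, 15.4 and 18.9. Fabp4 had ratios of 1.19, 1.36, 2.22 and 1.97. Lpl did not differ from 1 beyond counting error on WT at 1.32 (0.980 to 1.80) and on Early at 1.04 (0.804 to 1.36), and was at 1.78 and 3.47 on the Advanced areas. Thrsp rested on 6 interior UMIs on WT, where its ratio was 0.998 (0.395 to 3.00), and on 5 on Advanced 2. In the test of whether the edge difference differed between Advanced and Early, edgeR called 6 of 10998 genes in either direction (0.0546%), and no fat gene was among them, with 0 called by DESeq2 as well. Lpl, Car3, Plin1, Fabp4 and Cfd were among 424 genes under 0.05 before adjustment by edgeR, and Lpl had the lowest edgeR adjusted p, 0.123, at a log2 difference of 1.13 ± 0.30.

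**Figure D3:**
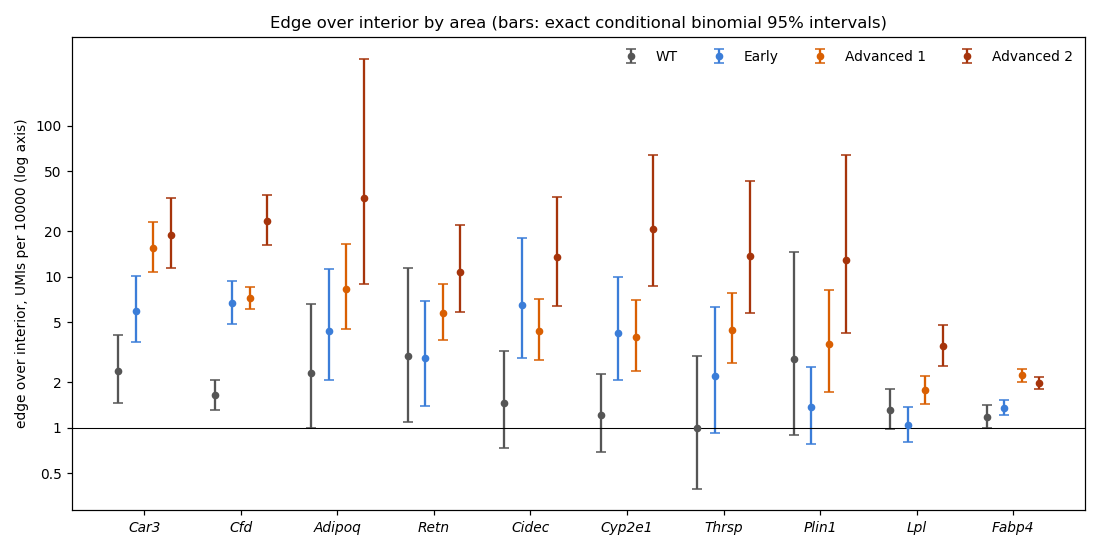
Ratio of the level at edge spots to that in interior spots for each gene and area on a log axis, with exact conditional binomial 95% intervals and a line at equality. Lpl and Fabp4 stay below 4 on every area, while Adipoq reaches 33.3 on Advanced 2 with 2 UMIs in the interior.

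Advanced areas had higher levels of most fat genes than the Early area. In the fit over 4 area sums, edgeR called 65 of 13102 genes higher in Advanced than in Early (0.496%) and 87 lower, or 89 and 45 when scaled by library size only, and 7 of the 10 fat genes were among those higher. The largest differences were in Retn at 1.91 ± 0.27 on the log2 scale (edgeR adjusted p = 9.98e-10) and Thrsp at 1.85 ± 0.32 (edgeR adjusted p = 5.36e-06). Car3 rose by 1.14 ± 0.20, Cfd by 1.11 ± 0.18, Cyp2e1 by 0.90 ± 0.26, Fabp4 by 0.90 ± 0.17 and Lpl by 0.74 ± 0.20, with edgeR adjusted p between 6.38e-07 and 0.0457. Cidec, with a log2 difference of 0.84 ± 0.26, and Adipoq, with 0.71 ± 0.28, did not pass (edgeR adjusted p = 0.072 and 0.299), and Plin1 was at 0.05 ± 0.32. This fit had 1 residual degree of freedom, from the Advanced pair, the lone Early and WT areas were assumed to vary like that pair, and edgeR shared its spread estimate fully across genes. DESeq2 called 0 fat genes and 7 genes in all, against 142 at an unadjusted p under 0.05. Cyp2e1 and Lpl were also not called with no filter or without the 5 leading spots of each area, and Cyp2e1 not without WT, so that of 7 alternatives Cyp2e1 was called in 2 and Lpl in 3.

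The calls against Early for Car3, Thrsp, Cyp2e1, Fabp4 and Lpl over whole areas were lost without 1 piece of tissue on Advanced 2. There, a detached piece of 249 spots held 24.4% of the UMIs of the area and 55.0% of its fat gene UMIs, at 40.9 UMIs per 10000 (39.5 to 42.4), against 10.9 (10.4 to 11.3) in the rest of that area. No table ties spots to nodes, so how many nodes or mice this piece holds is not known. The pieces of the Early area ranged from 1.89 to 11.1 UMIs per 10000, and the main piece of Advanced 1, with 2013 spots, was at 13.1. Without the Advanced 2 piece, which was chosen after its values were seen, Cfd and Retn were the fat genes still called higher in Advanced than in Early over whole areas. The log2 differences then were 0.70 for Car3 (edgeR adjusted p = 0.1), 1.21 for Thrsp (edgeR adjusted p = 0.0861), 0.59 for Fabp4, 0.52 for Lpl and 0.17 for Cyp2e1. Retn in the rest of Advanced 2 was at 0.422 UMIs per 10000, which was 2.73 times Early (2.02 to 3.71) and 1.53 times WT (1.08 to 2.19). Adipoq there was at 0.178, or 0.895 times Early (0.612 to 1.29). The 10 genes summed were 1.45 times Early (1.38 to 1.52) in the rest of Advanced 2 and 1.75 times Early (1.67 to 1.82) on Advanced 1, which does not hold the piece. In the rest of Advanced 2, Fabp4 held 1367 of the 2624 fat gene UMIs and was at 1.65 times Early (1.54 to 1.77). Thrsp, Car3, Lpl and Cfd were at 1.60, 1.33, 1.30 and 1.25 times Early there. Cyp2e1, Cidec and Plin1 were at 1.14, 1.03 and 0.817, with intervals that held 1. On Advanced 1, the interval of the ratio to Early lay above 1 for 8 genes, with Retn at 3.35 (2.56 to 4.43) and Thrsp at 3.16 (2.21 to 4.58), and held 1 for Cyp2e1 at 1.21 (0.904 to 1.61) and for Plin1. Here too the share over all genes was not computed.

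At the edge spots, 6 fat genes were called with and without that piece. The fit over edge sums, too, had 1 residual degree of freedom, and edgeR shared most of its spread estimate across genes. Retn at the edge was at 0.321 UMIs per 10000 on WT, 0.184 on Early, 0.909 on Advanced 1 and 1.04 on Advanced 2, and Thrsp at 0.160, 0.105, 0.482 and 0.606. Car3 at the edge was at 1.15 on WT, 0.852 on Early, 2.72 on Advanced 1 and 2.66 on Advanced 2. For these genes both Advanced areas were above WT and Early, and the Advanced pair differed less than either did from the other areas. EdgeR called 14 of 12092 genes higher in Advanced than in Early at the edge (0.116%), and 6 of them were fat genes: Retn at 2.34 ± 0.25 on the log2 scale (edgeR adjusted p = 0.00111), Thrsp at 2.31 ± 0.31, Car3 at 1.59 ± 0.19, Cfd at 1.52 ± 0.17, Fabp4 at 1.18 ± 0.20 and Lpl at 1.14 ± 0.20 (edgeR adjusted p = 0.049). The same genes were called without the Advanced 2 piece, and DESeq2 called all of them but Lpl. Cyp2e1, Cidec, Adipoq and Plin1 had log2 differences of 0.60 to 1.28 at the edge and did not pass. Under the 9 alternatives Cidec was called in 5, Adipoq and Cyp2e1 in 2 and Plin1 in 0, while Lpl was called in 6 and the other 5 genes in all 9.

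Against WT, which is compared with the same Advanced areas, few fat genes differed. Over whole areas edgeR called 96 of 13102 genes higher (0.733%) and 176 lower (1.34%) in Advanced, or 165 and 129 when scaled by library size only, which moved the median of all genes by 0.11 on the log2 scale. Retn was among those higher and Lpl among those lower under either scaling. Retn rose by 1.03 ± 0.29 on the log2 scale (edgeR adjusted p = 0.0179), but not without the Advanced 2 piece (0.67, edgeR adjusted p = 0.363) and not without the 5 leading spots of each area. Lpl fell by 0.81 ± 0.20 on the log2 scale (edgeR adjusted p = 0.00319), and this call was lost under DESeq2 alone of the 7 alternatives tested. Without the Advanced 2 piece, Cyp2e1 was also called lower than in WT, at -0.97 (edgeR adjusted p = 0.0471). At the edge, edgeR called 37 of 12092 genes higher (0.306%) and 89 lower, or 51 and 66 when scaled by library size only, with among the former Thrsp at 1.67 ± 0.35 (edgeR adjusted p = 0.0342), Retn at 1.51 ± 0.27 (edgeR adjusted p = 0.0125) and Car3 at 1.13 ± 0.20 (edgeR adjusted p = 0.0118). Under the 9 alternatives Thrsp was called in 6, and Retn and Car3 in 8. Lpl at the edge was at -0.47 ± 0.19 against WT and did not pass (edgeR adjusted p = 0.412). It was called lower there in 2 of the 9 alternatives. DESeq2 called 0 fat genes in either comparison with WT, where over whole areas it gave an adjusted p for 4 of them. It called 38 genes over whole areas and 39 at the edge, against 285 and 320 at an unadjusted p under 0.05.

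**Figure D4:**
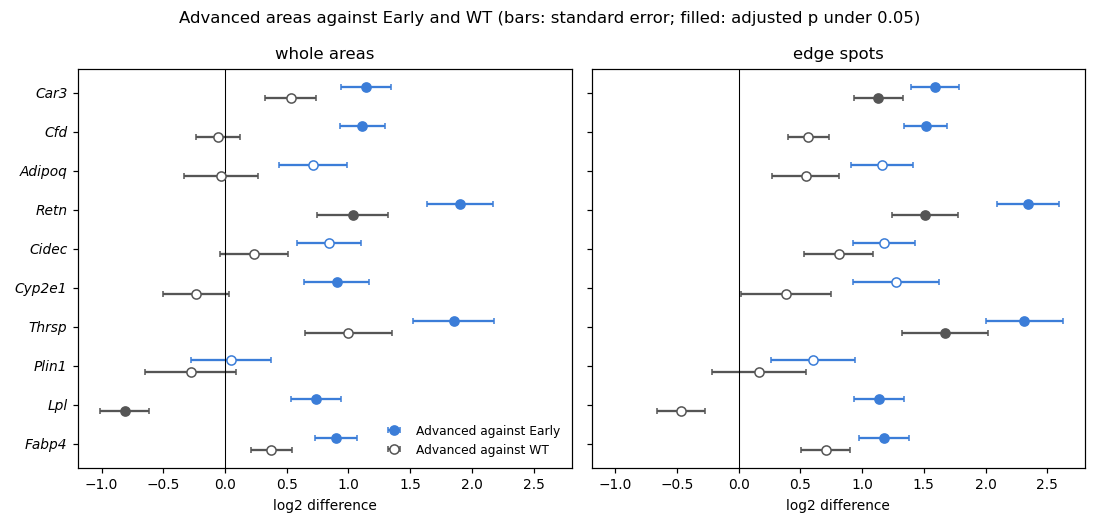
Log2 difference of the 2 Advanced areas from Early (blue) and from WT (grey) for each gene, over whole areas and over edge spots, with standard errors from edgeR and filled points where the adjusted p was under 0.05. Retn and Thrsp have the largest differences from Early, 1.91 and 1.85 over whole areas, and Lpl, at -0.81 over whole areas, is the gene called lower than in WT.

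Each gene was also set against Adipoq on the same area, a ratio that does not depend on the UMIs of other genes. Retn over Adipoq was 0.847 on WT (0.570 to 1.26), 0.777 on Early (0.573 to 1.05), 1.70 on Advanced 1 (1.32 to 2.19) and 1.84 on Advanced 2 (1.47 to 2.31). Thrsp over Adipoq was 0.492 on WT (0.304 to 0.779), 0.456 on Early (0.316 to 0.650), 0.942 on Advanced 1 (0.706 to 1.26) and 1.06 on Advanced 2 (0.820 to 1.36). Both ratios were higher on each Advanced area than on WT and Early, and the intervals of the Advanced areas did not overlap that of Early. In the Advanced 2 piece and in the rest of that area Retn over Adipoq was 1.55 (1.16 to 2.08) and 2.37 (1.65 to 3.47), and Thrsp over Adipoq was 1.19 (0.873 to 1.62) and 0.814 (0.506 to 1.30). Without the 5 leading spots of each area the Retn ratio was 0.780, 0.864, 1.89 and 2.11 from WT to Advanced 2. Against Cidec, a droplet gene with 66 to 178 UMIs an area, Retn was at 0.758 on WT (0.514 to 1.11), 0.630 on Early (0.470 to 0.840), 1.39 on Advanced 1 (1.1 to 1.76) and 1.27 on Advanced 2 (1.04 to 1.55).

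Car3, Fabp4, Cidec and Cfd had ratios to Adipoq with overlapping intervals on all areas when all spots were used. Car3 was at 3.10 on WT (2.30 to 4.23), 3.42 on Early (2.74 to 4.30), 4.57 on Advanced 1 (3.69 to 5.72) and 4.59 on Advanced 2 (3.77 to 5.63). Fabp4 was at 14.8, 17.3, 16.9 and 21.7 in the same order. Cidec was at 1.12 on WT, 1.23 on Early, 1.22 on Advanced 1 and 1.45 on Advanced 2. Cfd was at 11.3, 8.44, 11.8 and 10.5 in that order. Without the 5 leading spots of each area some intervals no longer overlapped. Cfd was then at 7.35 on Early (5.67 to 9.65) and 13.6 on Advanced 1 (10.1 to 18.7). Car3 was at 2.15 on WT (1.47 to 3.19) and 4.79 on Advanced 2 (3.66 to 6.34). Fabp4 was at 17.1 on WT (12.5 to 24.0) and 32.6 on Advanced 2 (25.5 to 42.3). Lpl over Adipoq was highest on WT, at 5.54 (4.19 to 7.44), against 3.17 on Early (2.54 to 4.00), 3.48 on Advanced 1 and 3.03 on Advanced 2. Plin1 was at 0.610, 0.816 (0.604 to 1.1), 0.417 (0.285 to 0.601) and 0.593. Cyp2e1 over Adipoq separated the Advanced areas, at 0.864 on Advanced 1 (0.643 to 1.16) and 1.56 on Advanced 2 (1.24 to 1.97).

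**Figure D5:**
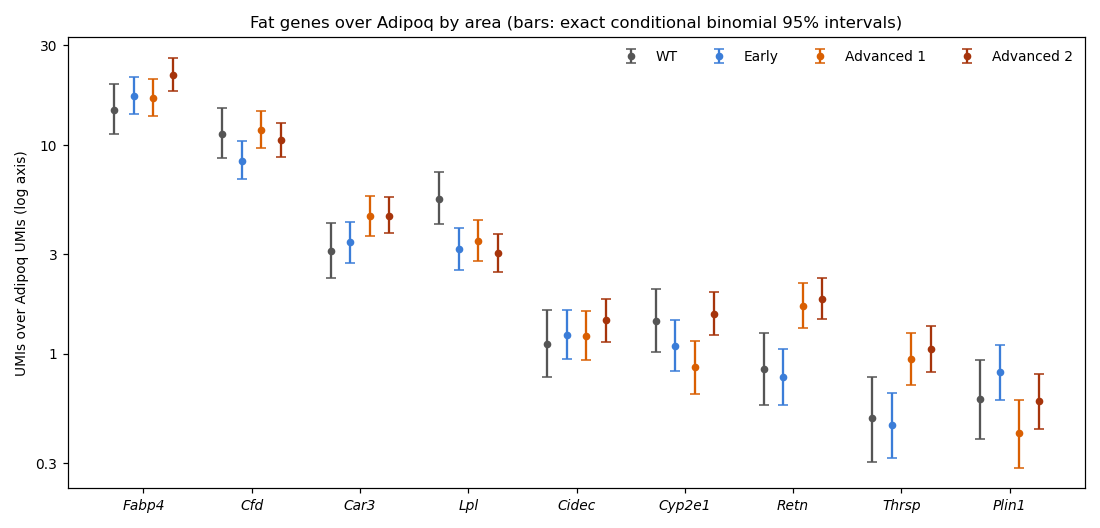
UMIs of each gene over Adipoq UMIs on the same area, on a log axis with exact conditional binomial 95% intervals. Retn moves from 0.777 on Early to 1.70 and 1.84 on the Advanced areas and Thrsp from 0.456 to 0.942 and 1.06, while Cidec stays between 1.12 and 1.45.

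The promoters of these genes are shown because Retn and Thrsp differed together against Adipoq. RefSeq promoters (GRCm38.p6) were found for 7 of the 10 genes, Adipoq, Cfd, Cidec, Cyp2e1, Plin1, Retn and Thrsp. The RefSeq starts of Thrsp, Cyp2e1, Plin1 and a Cidec window lie inside the gene spans given above. Those windows therefore lie in part or wholly within the gene, as do both matches marked for Thrsp. The 250 bases before the start are given 5′ to 3′ for Retn (chr8:3655520-3655769, + strand), Thrsp (chr7:97417551-97417800, - strand) and Adipoq (chr16:23146286-23146535, + strand), with capitals marking matches to the motifs searched.
Retn: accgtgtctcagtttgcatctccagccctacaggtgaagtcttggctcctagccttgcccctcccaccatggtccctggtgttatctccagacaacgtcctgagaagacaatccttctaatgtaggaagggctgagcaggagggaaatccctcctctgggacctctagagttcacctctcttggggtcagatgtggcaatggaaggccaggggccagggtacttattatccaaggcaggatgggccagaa
Thrsp: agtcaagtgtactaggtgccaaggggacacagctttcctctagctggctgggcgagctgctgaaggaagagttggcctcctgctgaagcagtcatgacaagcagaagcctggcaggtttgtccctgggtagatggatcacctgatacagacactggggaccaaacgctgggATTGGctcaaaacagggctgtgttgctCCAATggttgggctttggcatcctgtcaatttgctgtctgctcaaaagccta
Adipoq: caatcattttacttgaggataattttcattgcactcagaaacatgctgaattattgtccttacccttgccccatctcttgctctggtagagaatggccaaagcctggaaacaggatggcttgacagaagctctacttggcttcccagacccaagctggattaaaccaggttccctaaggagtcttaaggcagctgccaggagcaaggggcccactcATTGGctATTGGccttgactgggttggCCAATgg
The motifs, searched on both strands, were the TATA box TATAAA, the C/EBP-type TTGCNNAA, the nuclear receptor motif AGGTCA, the E-box CACGTG and the CCAAT box. CCAAT was in the windows of Adipoq, Cyp2e1 and Thrsp and in 33.8% of the 32851 promoters of the table. TTGCNNAA was in those of Cidec and Plin1 and in 9.56% of all, and TATAAA in that of Cyp2e1 and 12.4% of all. AGGTCA and CACGTG, in 14% and 6.02% of all, were in none of the members' windows. The Retn window had no match to any of these motifs and so shared none with Thrsp.

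The wider fat programme was followed through gene lists. Among genes of fatty acid and triglyceride synthesis, 6 of 14 tested were higher at the edge, namely Agpat2, Pck1, Dgat2, Fasn, Gpd1 and Scd1, with a list median of 0.57 on the log2 scale against -0.0033 for all genes. Fasn, the fatty acid synthase, was the list's gene called higher in Advanced than in Early, at 0.99 ± 0.21 (edgeR adjusted p = 0.000635), with 0.691 UMIs per 10000 on WT, 0.585 on Early, 1.13 on Advanced 1 and 1.32 on Advanced 2. Scd1, the stearoyl-CoA desaturase, was at 2.83 on WT, 4.07 on Early, 5.43 on Advanced 1 and 6.27 on Advanced 2, and was called higher in Advanced than in WT at 0.94 ± 0.18 (edgeR adjusted p = 2.09e-05). Scd2 and Acly of the same list did not pass in these comparisons.

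Of 9 genes of lipid droplets and lipolysis tested, Pnpla2 and Plin4 were higher at the edge, and 0 passed between Advanced and Early or WT over whole areas, with list medians of 0.25 and -0.28 on the log2 scale against 0.014 and 0.013 for all genes. Pnpla2, the first lipase of triglyceride breakdown, was at 0.979 UMIs per 10000 on WT, 0.988 on Early, 0.929 on Advanced 1 and 1.09 on Advanced 2. Plin2 was at 0.921 to 1.26, Lipe at 0.371 to 0.525 and Plin3 at 0.337 to 0.403. Of 7 uptake and transport genes, Fabp5 and Cd36 were higher at the edge and Angptl4, an inhibitor of lipoprotein lipase, was lower in Advanced than in WT at -0.82 ± 0.21 (edgeR adjusted p = 0.00718). Gpihbp1, which carries lipoprotein lipase on capillaries, had log2 differences of 0.78 against Early and 0.54 against WT and did not pass. Of the adipocyte regulators, Sncg was higher at the edge among 4 tested, and of 7 tested between areas none passed, Pparg with 121 UMIs in all. Adipokine receptors and other adipokines had 0 calls at the edge among 5 tested and 0 among 8 tested between areas, Adipor1 lying at 1.23 to 1.29.

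Partners of Cfd in the alternative complement pathway had other orders of areas. Cfb, the factor that adipsin cleaves, was at 3.94 UMIs per 10000 on WT, 7.92 on Early, 5.4 on Advanced 1 and 5.25 on Advanced 2, and fell by 0.65 ± 0.16 on the log2 scale in Advanced against Early (edgeR adjusted p = 0.00582). Early was the highest area for Cfb and the lowest for Cfd. C3 was at 27.6 to 36.3 and Cfp at 2.60 to 3.5, and neither passed.

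Markers of other cells were read beside these results, since Fabp4, Lpl and Car3 are not made by fat cells alone. Capillary endothelial markers, a source of Fabp4, summed to 12.8 UMIs per 10000 on WT, 9.20 on Early, 11.8 on Advanced 1 and 12.6 on Advanced 2, and 0 of 8 passed at the edge or between Advanced and Early, while Cldn5 was lower in Advanced than in WT. Sinus macrophage markers summed to 55.7, 37.3, 27.3 and 35.5, with Siglec1 higher at the edge, 0 called between Advanced and Early, and 7 of 9 lower in Advanced than in WT, as Lpl was. Skeletal muscle markers, for Car3, summed to 0.171, 0.205, 0.305 and 0.503, with Mb at 0 on every area and Ckm called higher in Advanced than in Early. In the leading fat spots they were at 0.158 on WT, 0.230 on Early, 0.205 on Advanced 1 and 0.355 on Advanced 2, on 1 to 7 UMIs an area, against 0.172, 0.203, 0.313 and 0.513 elsewhere. Brown fat markers had 6 to 32 UMIs an area, and 0 passed the filter at the edge. In the leading fat spots they were at 0.158 on WT and 0.0384 on Early, on 1 UMI each. On Advanced 1 and Advanced 2 they were at 0.739 and 0.660 there, on 18 and 13 UMIs. Elsewhere they were at 0.0286, 0.0305, 0.0447 and 0.0433 from WT to Advanced 2. Over all spots Cox8b and Cox7a1 had 16 and 9 UMIs on Advanced 1 and 10 and 11 on Advanced 2. Other genes of the list were near absent there. Ppargc1a and Cidea had 3 and 2 UMIs on Advanced 1 and 2 and 2 on Advanced 2, and Elovl3 had 0 on both. Of 8 capsule fibroblast markers, 0 passed at the edge, Col3a1 was lower in Advanced than in Early, and Dcn and Lum were lower than in WT. Of 8 lymphocyte markers, Cd79a, Cd79b and Ms4a1 were higher and Cd3e and Trac lower at the edge, 0 passed between Advanced and Early, and Cd3e and Trac were lower in Advanced than in WT. The part of these cells in the fat gene results was not tested.

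Genes of fat metabolism were among those distributed most like the 10 fat genes. Among 12062 other genes with at least 50 UMIs, the 10 with the highest enrichment in the leading fat spots, ranked by their lowest area, were Pck1, Plin4, Adig, Cdo1, Gpd1, Pcx, Car5b, Slc7a10, Dgat2 and Rbp4. Pck1, which makes glycerol for triglyceride in fat, had log2 enrichments of 6.08 on WT, 4.74 on Early, 8.08 on Advanced 1 and 5.08 on Advanced 2, from 166 UMIs in all. Plin4, a droplet coat protein, had 4.60 to 5.14, and Rbp4, the retinol carrier secreted by fat, 3.42 to 5.36. This is a description over 4 areas, and these spots were chosen by the 10 fat genes.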

How the data were processed

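Spatial transcriptomics was performed by the study on 4 capture areas (WT 1, Early 1, Advanced 2). The authors made the deposited counts, whole UMI counts per gene and spot without normalization, with Space Ranger 1.1.0 on GRCm38 (mm10), and kept spots under tissue. Samples were grouped by the labels.

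Spots are not replicates, so UMIs were summed per area and position. Sums were tested with edgeR 4.0.16 (R 4.3.3), with TMM factors, filterByExpr, the quasi-likelihood test and Benjamini-Hochberg adjustment at 0.05. DESeq2 1.42.0, library size only, no filter, spots with at least 500 UMIs, removal of the 5 leading spots or of an area, and other edge definitions were alternatives, and removal of a tissue piece was chosen after seeing the data. The fits were tested on simulated data. Totals of 1808678 to 5180493 UMIs an area set the precision. In the fits between conditions, p-values rest on the spread of the Advanced pair and on a spread estimate shared across genes. WT and Early, with 1 area each, add no spread within a condition. The edge against interior fit had 3 residual degrees of freedom and also shared its spread estimate in part. All 10 genes were named, with up to 4 genes of each list by most UMIs and the 10 most like them. The genes and lists were chosen with earlier results of these data known. Other genes the text names are those a test called within a list, and Mb and Elovl3, named where they had 0 UMIs. Some genes of the lists are not reported here.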

Additional observations from a re-analysis of the deposited data

Results flagged for a closer look

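Thrsp had a log2 ratio of edge to interior of -0.0024 on WT, where the other areas were above 0, at 1.13 on Early, 2.16 on Advanced 1 and 3.78 on Advanced 2. It was picked out because the WT area moved the other way from the TNF-Tg areas, by a margin far inside the counting error of 6 interior UMIs on WT. The difference between WT and the other areas was not tested.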

How the results depend on the processing

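Of 533 values of single fat genes under alternatives with a test, 468 kept their direction and side of the threshold and 13 changed sign. Genes called between edge and interior were 884, 420 with DESeq2, 564 with spots of at least 500 UMIs, 478 with the next ring of spots counted as edge, and 279 to 1136 with an area left out, the lowest without Advanced 2. Without the replicate block for area the count was 159. For Advanced against Early over whole areas, DESeq2 called 0 fat genes and 7 genes of 152, and without the Advanced 2 piece 2 and 99 were called. For Advanced against WT over whole areas, DESeq2 called 0 and 38 genes of 272, and 1 fat gene was called without the 5 leading spots. At the edge against Early, 18 genes became 88 with no filter, 30 with spots of at least 500 UMIs, 65 without the leading spots, 60 without the piece, 71 with the next ring and 30 without WT. At the edge against WT, 126 genes became 39 with DESeq2 (0 fat genes), 317 with no filter, 227 with deep spots, 372 without the leading spots, 353 without the piece and 257 with the next ring. For the edge difference between Advanced and Early, 6 genes became 0 with DESeq2 and 0 with no filter. The summed level of the fat genes in Advanced over Early fell from 2.09 to 1.60 without the piece, and over WT from 1.19 to 0.912, below 1. The share in the leading 1% of spots was 25.2%, 34.2%, 51.0% and 44.5% from WT to Advanced 2 with deep spots only, where 1% is fewer spots.

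No value that changed sign had passed the test. Without the piece these were Plin1 against Early (-0.39) and Cidec against WT (-0.31) over whole areas, and Cyp2e1 (-0.36) and Plin1 (-0.30) against WT at the edge. Without the leading spots they were Plin1 against Early (-0.31) and, at the edge, against WT (-0.16). With library size only, Cfd (0.056) and Adipoq (0.079) against WT and Cidec in the edge difference (0.035) reversed, and with DESeq2 the last was 0.11. With the next ring, the edge differences of Cfd (-0.61), Retn (-0.58) and Adipoq (-0.0499) reversed. The cause was not tested. Leaving out either Advanced area left no residual degrees of freedom between conditions, so those 100 values carry no test, and 11 of them changed sign. Without Advanced 1 these were Cfd (0.039), Adipoq (0.14), Cyp2e1 (0.25) and Plin1 (0.097) against WT over whole areas and Cidec (1.00) in the edge difference. Without Advanced 2 they were Plin1 against Early (-0.44), Fabp4 (-0.031) and Cidec (-0.095) against WT over whole areas, Cyp2e1 (-0.27) and Plin1 (-0.27) against WT at the edge, and Cyp2e1 (-0.090) in the edge difference. No paired analysis between conditions was possible because WT and Early have 1 area each.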
